A study of Mus musculus with 8 samples.

Results

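Laminins, nidogens and perlecan are the proteins that, with type IV collagen, build the basement membrane, and their transcripts were examined here in cultured mouse cardiac fibroblasts. The 9 genes, chosen by name as the non-collagen basement membrane genes of the series, are the laminin alpha chains Lama2, Lama4 and Lama5, the beta chains Lamb1 and Lamb2, the gamma chain Lamc1, the nidogens Nid1 and Nid2, and Hspg2, which encodes perlecan. They are 9 of the 54532 genes in the deposited expression table, and all 9 were among the 12994 that reached 1 FPKM in at least 2 libraries. FPKM is a level per length of exon and per library depth. It compares genes only roughly, since the length is that of all annotated exons of a gene merged, and a transcript may use only a part.

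RNA sequencing was run on 8 libraries of cardiac fibroblasts at day 7, in 4 groups of 2. They were cells overexpressing EphrinB2 in osteogenic differentiation medium, EphrinB2 cells in complete medium, cells with the vector alone in osteogenic medium, and vector cells in complete medium. EphrinB2, encoded by Efnb2, is a membrane-bound ligand of Eph receptors. The labels give neither its route of delivery nor the strain and age of the mice nor the ingredients of the osteogenic medium. They do not say whether a group's libraries are separate cultures, so the p-values carry just the spread among these libraries, and it may be technical.

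A laminin is a trimer of 1 alpha, 1 beta and 1 gamma chain, put together inside the cell and secreted. The alpha chain sets which integrins and dystroglycan the trimer binds at the cell surface. Nidogens bridge the gamma chain of the laminin network to type IV collagen, and perlecan, a heparan sulfate proteoglycan, ties both networks together and holds growth factors. In the heart a basement membrane surrounds cardiomyocytes, capillaries and smooth muscle, and interstitial fibroblasts are a main source of its subunits without being wrapped in one themselves.

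Promoter sequences of 6 of the 9 genes could be taken from RefSeq (GRCm38.p6), each running from 250 bases before to 50 bases after the annotated transcript start, those of Hspg2, Lama2, Lama5, Lamb1, Lamb2 and Nid1. The 4 printed here set genes that were lower in osteogenic vector cultures, Lamb1 and Hspg2, beside a paralogue or partner that was not, Lamb2 and Nid1. Capitals mark the GC box GGGCGG on either strand (CCGCCC on the other), the core of the site that Sp-family factors bind. All 4 genes lie on the plus strand, at chr12:31265043-31265342 (Lamb1), chr4:137468553-137468852 (Hspg2), chr9:108479612-108479911 (Lamb2) and chr13:13437352-13437651 (Nid1).
Lamb1: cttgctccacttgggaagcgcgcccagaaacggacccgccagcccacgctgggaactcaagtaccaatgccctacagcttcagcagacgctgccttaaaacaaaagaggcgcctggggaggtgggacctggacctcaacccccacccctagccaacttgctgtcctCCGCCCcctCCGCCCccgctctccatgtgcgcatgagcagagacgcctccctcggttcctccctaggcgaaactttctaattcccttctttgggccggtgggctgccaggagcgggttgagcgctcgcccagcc
Hspg2: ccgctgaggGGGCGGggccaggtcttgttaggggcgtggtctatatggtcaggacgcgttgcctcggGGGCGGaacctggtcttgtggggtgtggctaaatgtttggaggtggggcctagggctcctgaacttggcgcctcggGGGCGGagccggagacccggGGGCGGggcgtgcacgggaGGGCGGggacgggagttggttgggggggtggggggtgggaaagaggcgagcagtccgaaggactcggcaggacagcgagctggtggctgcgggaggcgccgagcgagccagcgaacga
Lamb2: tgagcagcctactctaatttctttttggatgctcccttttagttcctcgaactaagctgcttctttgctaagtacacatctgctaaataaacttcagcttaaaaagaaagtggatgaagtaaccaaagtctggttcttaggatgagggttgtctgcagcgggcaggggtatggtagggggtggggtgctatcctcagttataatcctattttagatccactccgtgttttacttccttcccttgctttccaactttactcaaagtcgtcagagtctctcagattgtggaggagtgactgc
Nid1: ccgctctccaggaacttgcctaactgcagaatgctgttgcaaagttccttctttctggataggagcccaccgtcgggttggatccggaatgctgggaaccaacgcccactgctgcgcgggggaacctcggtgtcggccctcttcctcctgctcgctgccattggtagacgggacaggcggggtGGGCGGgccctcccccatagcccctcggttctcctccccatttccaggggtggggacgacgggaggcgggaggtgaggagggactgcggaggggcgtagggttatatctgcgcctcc

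The GC box occurred 5 times in the Hspg2 window, 4 times in that of Lama5, 2 times in that of Lamb1 and 1 time each in those of Nid1 and Lama2, and the Lamb2 window did not hold these letters. Of 32851 promoters of the same length, 35.7% held it. GC content was 70.3% for Hspg2, 72.7% for Lama5, 64.7% for Nid1 and 63.7% for Lamb1, against 50.3% for Lama2 and 44.0% for Lamb2, beside a median of 52.7% over all promoters. The letters TATAAA, in either direction, stood in none of the 6 windows and in 13.6% of all promoters. The half-site of the glucocorticoid receptor, TGTTCT or AGAACA, stood 1 time in the Lama2 window and in 19% of all promoters. These matches describe letters in a window only.

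The libraries were not alike in quality of replication. Counted reads, estimated from the steps between low FPKM values, ranged from 16493963 to 20550770. Over the 12994 genes, partners within a group differed with an SD (log2) of 0.66 in EphrinB2 osteogenic and 0.52 in EphrinB2 complete cells, against 0.23 and 0.26 in vector osteogenic and vector complete cells. On the first principal component, with 59.6% of the variance, EphrinB2 osteogenic replicate 1 stood at 63.33 and its partner at 24.5, and EphrinB2 complete replicate 2 at -50.51 and its partner at -22.9. Vector libraries stood at 21.68 and 23.05 in osteogenic and at -29.55 and -29.59 in complete medium. EphrinB2 osteogenic replicate 1 and EphrinB2 complete replicate 2 are called below the 2 libraries that stood apart, and results that rest on them are given with and without both. Each EphrinB2 group then has 1 library, and the vector libraries alone supply the spread. With 2 libraries in a group, nothing shows which partner is the unusual one. Both libraries left out were the ones farther from the vector libraries of the same medium on that component. The choice itself therefore brings EphrinB2 and vector cells closer on it, so smaller differences between them in that fit are not separate evidence.

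Efnb2 checked the labels. It stood at 5.02 and 18.3 FPKM in EphrinB2 osteogenic, 31.3 and 32.9 in EphrinB2 complete, 1.39 and 1.27 in vector osteogenic and 6.30 and 5.56 in vector complete libraries. In each medium all EphrinB2 values were higher than the vector ones. The difference was 2.21 (log2, limma adjusted p = 0.567) in osteogenic and 2.26 (adjusted p = 1) in complete medium, and 3.05 (adjusted p = 0.0193) and 2.22 (adjusted p = 0.043) without both libraries that stood apart. The fibroblast label matched the markers: all 10 fibroblast markers reached 1 FPKM in at least 2 libraries, with Col3a1 at 525 to 2168 FPKM and Col1a1 at 281 to 2087. All 12 macrophage markers did so too, with Lyz2 at 551 to 6061 FPKM and C1qa at 82.8 to 830 FPKM. In RNA of a whole culture, fewer cells of a type and less RNA per cell cannot be told apart.

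The 9 transcripts covered a wide range of abundance, and the order was nearly the same in every group. In vector complete cells Hspg2 averaged 292 ± 6.54 FPKM (SD, n = 2), Nid1 220 ± 4.81, Lamc1 147 ± 1.00, Lamb2 146 ± 2.84, Nid2 83.9 ± 1.19, Lamb1 67.9 ± 1.87, Lama4 41.0 ± 0.502, Lama2 28.3 ± 0.555 and Lama5 6.70 ± 0.567. Lamc1 and Lamb2 were not separated beyond their spread there, and every other neighbouring pair was. Hspg2 stood at the 99.2 percentile of tested genes and Lama5 at 55.5.

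In the other groups Nid2, Lamb1, Lama4, Lama2 and Lama5 kept the lower 5 places in this order by mean. The upper 4 kept theirs by mean in EphrinB2 complete cells and changed places in both osteogenic groups. Vector osteogenic cells had Nid1 first at 226 ± 0.0658 FPKM (SD, n = 2), then Hspg2 at 178 ± 10.8, Lamb2 at 155 ± 3.56 and Lamc1 at 117 ± 1.90, with libraries that did not overlap between neighbours. In EphrinB2 osteogenic cells the order by mean was Nid1, Lamb2, Hspg2 and Lamc1, but the 2 libraries differed so much that every pair of neighbours overlapped except Lama2 and Lama5. In EphrinB2 complete cells Hspg2, Nid1, Lamc1 and Lamb2 each overlapped the next, and so did Nid2 and Lamb1, and Lama4 and Lama2. Compared within each library, Nid1 and Lamb2, Hspg2 and Lamc1, and Nid2 and Lamb1 changed order between the EphrinB2 osteogenic replicates. Between the EphrinB2 complete replicates Hspg2 and Nid1, and Lamc1 and Lamb2, changed order. All other neighbours in these groups kept theirs, such as Lama4 above Lama2. Lama2 together with Lama4 therefore supplied most alpha chain transcript in every library, and Lama5 was the scarcest member throughout.

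**Figure D1:**
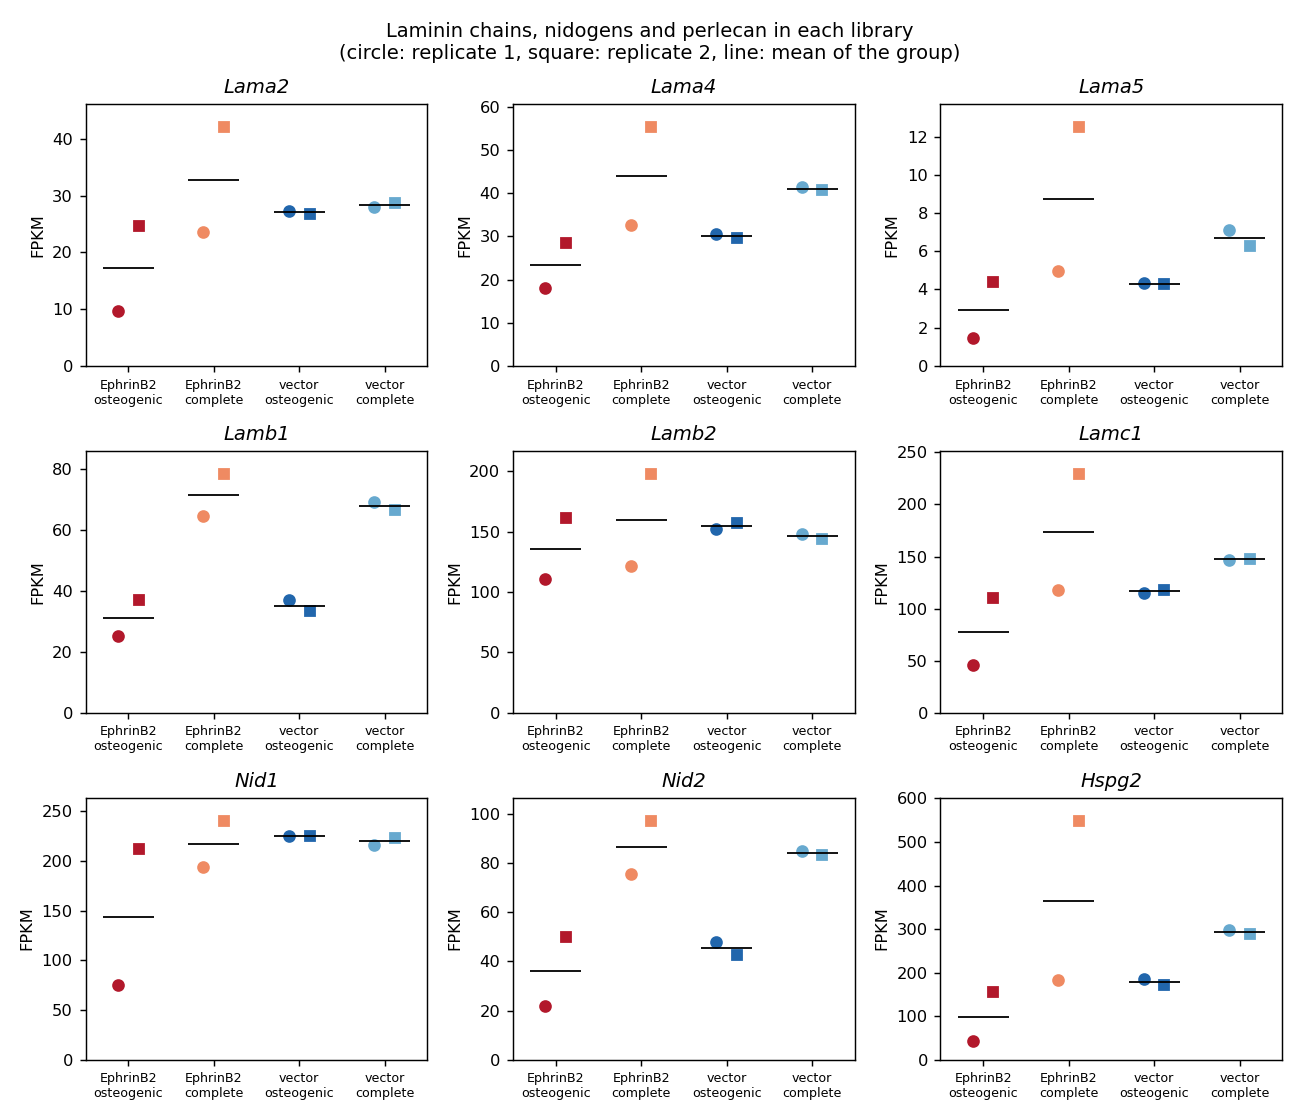
FPKM of each of the 9 genes (vertical axis, linear from 0) in the 8 libraries, by group, with circles for replicate 1, squares for replicate 2 and a line at the mean of the group. Vector libraries lie almost on top of each other, while both EphrinB2 groups have replicate 2 above replicate 1 for all 9 genes; Lamb1 and Nid2 are lower in osteogenic than in complete medium in every library.

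All 9 genes had a higher value in replicate 2 than in replicate 1 in both EphrinB2 groups. The log2 difference between partners had a median over the 9 of 1.159 (0.53 to 1.85) in EphrinB2 osteogenic and 0.74 (0.27 to 1.57) in EphrinB2 complete cells, against -0.03 in both vector groups. These are long transcripts: merged exon lengths ran from 5174 bases for Nid2 to 16338 for Lama2, from the 64.0 to the 98.3 percentile of tested genes. In the same EphrinB2 pairs, the partner difference of all tested genes moved with exon length, with Spearman's rho across genes of 0.51 in osteogenic and 0.44 in complete cells, against -0.02 and 0.04 in vector cells (genes are not independent replicates). Genes of 9000 bases or more, 5 of the 9 among them, had a median partner difference of 0.53 and 0.39 in those EphrinB2 groups. Genes of 5000 to 9000 bases, which include the other 4, had 0.26 and 0.17, and genes under 2000 bases -0.55 and -0.29. The medians of the 9 genes, 1.159 and 0.74, were above the medians at all these lengths. The part of length in the EphrinB2 results below was not tested beyond the fit with the length trend removed.

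**Figure D2:**
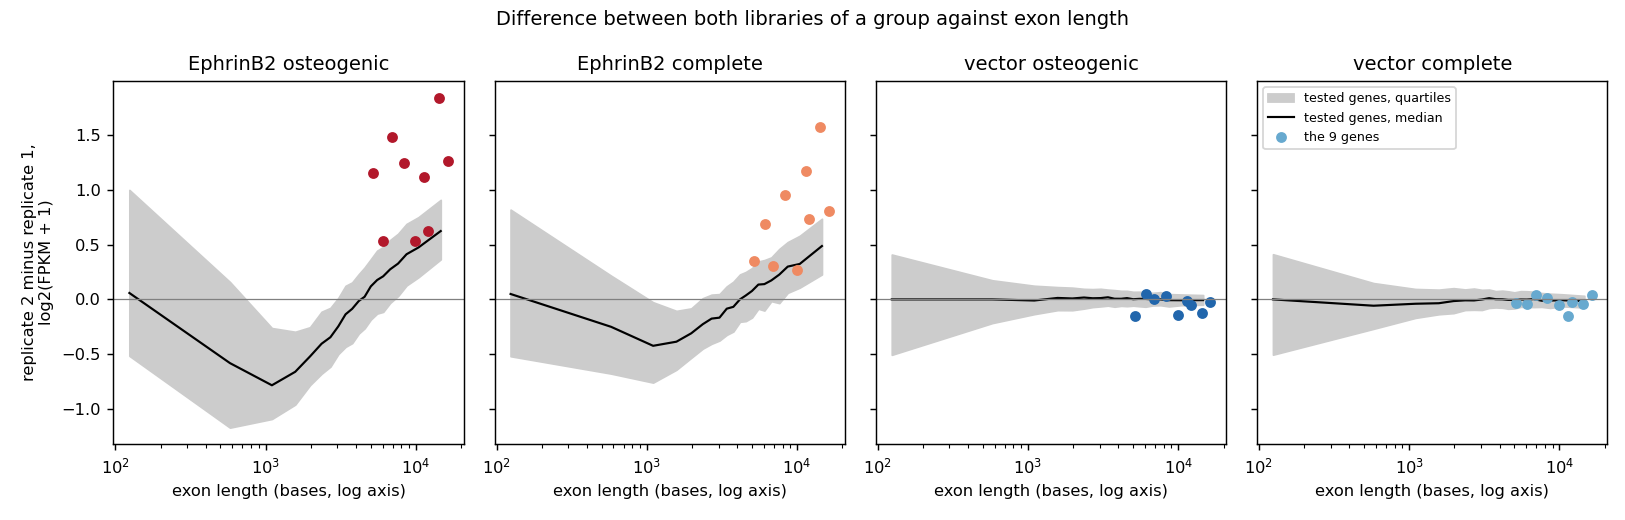
Difference between both libraries of a group, replicate 2 minus replicate 1 in log2(FPKM + 1), against exon length in bases (log axis), in 4 panels by group. The black line is the median and the grey band the quartiles of tested genes in 20 bins of length, and points are the 9 genes, which lie above 0 in both EphrinB2 panels (medians 1.159 and 0.74) and near 0 in both vector panels.

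Osteogenic against complete medium asks how the medium change went with basement membrane transcripts, in each kind of cell. In vector cells, where replicates were close, Lamb1, Nid2 and Hspg2 were the members with the largest differences, all lower in osteogenic medium, and Lama2, Lamb2 and Nid1 hardly differed. In EphrinB2 cells every one of the 9 was lower by the mean, and Lamb1 alone fell past the threshold. In 4 of the 9 genes, Lama4, Lama5, Lamb1 and Nid2, all 4 osteogenic libraries lay below all 4 complete libraries, and in 0 above, while 16.8% and 15.9% of tested genes did so. Differences are given on the log2(FPKM + 1) scale from limma, fitted on all 8 libraries with Benjamini-Hochberg adjusted p over all tested genes and a threshold of 0.05.

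Lamb1, the beta chain found in most embryonic and many adult tissues, stood at 25.2 and 36.9 FPKM in EphrinB2 osteogenic libraries, against 64.6 and 78.3 in EphrinB2 complete libraries. Vector osteogenic libraries had 37.0 and 33.3 FPKM of it, against 69.3 and 66.6 in vector complete libraries. Both media were thus well apart for Lamb1 in either kind of cell. In EphrinB2 cells it fell by 1.19 (SE 0.22, limma adjusted p = 0.0188, lower in 2 of 2 libraries), the 1 call among the 9 genes where 11.8% of all tested genes were called and 5.44% fell. Without both libraries that stood apart, which leaves 1 library in each EphrinB2 group, the Lamb1 difference was -0.79. Lamb1 kept the call with the length trend removed, at -0.88 (adjusted p = 0.0045), where 17.3% of tested genes were called. It lost the call with the EphrinB2 libraries alone, where 0 of the 9 and 1.18% of all genes passed (Lamb1 adjusted p = 0.189), and with array weights (adjusted p = 0.107). The Lamb1 call was also lost without EphrinB2 complete replicate 2 (-1.06, adjusted p = 0.101) and without any 1 of the 4 vector libraries (adjusted p = 0.0578 to 0.0582).

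In vector cells Lamb1 differed by -0.93 (SE 0.22), just outside the threshold in the model of all 8 libraries (adjusted p = 0.0549), in which 0 of the 9 genes and 7.52% of all tested genes were called (3.11% fell). That model takes 1 spread per gene over all groups, the EphrinB2 pairs included. With the 4 vector libraries alone, 6 of the 9 genes fell, where 40.6% of tested genes were called and 22.1% fell: Lamb1 (adjusted p = 0.00111), Nid2 (0.00129), Hspg2 (0.00166), Lama4 (0.00279), Lamc1 (0.0046) and Lama5 (0.00641). Lama2 (-0.06, adjusted p = 0.295), Lamb2 (0.08, adjusted p = 0.197) and Nid1 (0.04, adjusted p = 0.527) did not pass even there. The median of the 9 differences was -0.43 in vector cells, beside -0.02 over all tested genes. It was -1.19 in EphrinB2 cells, beside 0.03, and -0.15 without both libraries that stood apart (-0.57 without EphrinB2 osteogenic replicate 1 and -0.71 without EphrinB2 complete replicate 2 alone).

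Lamb2, the beta chain of the neuromuscular junction, kidney glomerulus and vascular smooth muscle, stood at 111 and 161 FPKM in EphrinB2 osteogenic libraries, against 122 and 197 in EphrinB2 complete libraries. In vector cells it had 152 and 157 FPKM in osteogenic, against 148 and 144 in complete libraries. The EphrinB2 libraries overlapped between the media, and in vector cells the osteogenic pair was marginally above. In EphrinB2 cells the Lamb2 difference was -0.21 (SE 0.29, adjusted p = 0.616). Without both libraries that stood apart, which leaves 1 library in each EphrinB2 group, it turned to 0.40, the highest of the 9. The direction for Lamb2 in EphrinB2 cells thus depended on those libraries.

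Lamc1, the gamma chain of nearly all laminins outside epithelia and the one nidogen binds, stood at 45.8 and 110.1 FPKM in EphrinB2 osteogenic libraries, against 118 and 229 in EphrinB2 complete libraries. Its vector values were 115 and 118 FPKM in osteogenic, against 147 and 148 in complete libraries. The vector pairs were apart by much more than their own spread, and replicate 2 in EphrinB2 osteogenic cells came close to replicate 1 in EphrinB2 complete cells. The Lamc1 difference was -1.20 (adjusted p = 0.137) in EphrinB2 cells, -0.09 there without both libraries that stood apart, and -0.33 in vector cells.

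Among the alpha chains, Lama4, the chain of vessel walls, peripheral nerve and fat, stood at 18.2 and 28.6 FPKM in EphrinB2 osteogenic libraries, against 32.7 and 55.3 in EphrinB2 complete libraries. It had 30.7 and 29.6 FPKM in vector osteogenic, against 41.4 and 40.7 in vector complete libraries. The 4 osteogenic values were the lowest 4, and the closest 2 values across media were 30.7 and 32.7. The difference was -0.87 (adjusted p = 0.111) in EphrinB2 cells, -0.19 without both libraries that stood apart, and -0.43 (adjusted p = 0.548) in vector cells.

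Lama2, the alpha chain of muscle basement membranes whose loss causes a congenital muscular dystrophy, stood at 9.70 and 24.7 FPKM in EphrinB2 osteogenic libraries, against 23.5 and 42.0 in EphrinB2 complete libraries. The vector libraries had 27.3 and 26.8 FPKM in osteogenic, against 27.9 and 28.7 in complete medium. The media overlapped in EphrinB2 cells and nearly touched in vector cells. Lama2 differed by -0.97 (adjusted p = 0.182) in EphrinB2 cells and by 0.07 without both libraries that stood apart.

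Lama5, the widespread chain of adult epithelia and vessels, stood at 1.48 and 4.40 FPKM in EphrinB2 osteogenic libraries, against 4.98 and 12.48 in EphrinB2 complete libraries. It had 4.34 and 4.27 FPKM in vector osteogenic, against 7.10 and 6.30 in vector complete libraries. Both complete groups lay above all osteogenic libraries, by a small margin in EphrinB2 cells. The fewest reads behind a Lama5 value were 347, an estimate that carries counting error only. The difference was -1.29 (adjusted p = 0.119) in EphrinB2 cells, -0.15 without both libraries that stood apart, and -0.53 (adjusted p = 0.661) in vector cells.

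Nid1, the more abundant nidogen, stood at 74.9 and 212 FPKM in EphrinB2 osteogenic libraries, against 194 and 240.0 in EphrinB2 complete libraries. Its vector values were 226 and 226 FPKM in osteogenic, against 217 and 223 in complete libraries. Apart from EphrinB2 osteogenic replicate 1, all 7 libraries lay between 194 and 240.0 FPKM. The Nid1 difference was -0.77 (adjusted p = 0.272) in EphrinB2 cells and turned to 0.13 without both libraries that stood apart.

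Nid2, the second nidogen, strong in endothelial and developing tissues, stood at 21.8 and 49.97 FPKM in EphrinB2 osteogenic libraries, against 75.7 and 96.9 in EphrinB2 complete libraries. Vector cells had 47.7 and 42.7 FPKM in osteogenic, against 84.7 and 83.1 in complete medium. The lowest complete library was thus well above the highest osteogenic one. The Nid2 difference was -1.34 (SE 0.36, adjusted p = 0.0616) in EphrinB2 cells and -0.88 (SE 0.36, adjusted p = 0.251) in vector cells. Without both libraries that stood apart the Nid2 difference in EphrinB2 cells was -0.59. Nid2 fell past the threshold there with the length trend removed (-1.28, adjusted p = 0.0388, where 17.3% of tested genes were called). Nid2 shares 437 exon bases with Rtraf on the opposite strand, and whether counting used strand is not stated in the sources. Rtraf stood at 71.0 and 38.0 FPKM in EphrinB2 osteogenic, 42.9 and 39.2 in EphrinB2 complete, 32.8 and 30.6 in vector osteogenic and 36.0 and 36.3 in vector complete libraries, and its part in the Nid2 values was not tested.

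Hspg2, which encodes perlecan, stood at 42.4 and 155 FPKM in EphrinB2 osteogenic libraries, against 183 and 547 in EphrinB2 complete libraries. Vector cells had 186 and 171 FPKM of it in osteogenic, against 297 and 288 in complete medium. The highest and lowest of all 8 values were those of both libraries that stood apart, and vector osteogenic replicate 1 lay just above EphrinB2 complete replicate 1. The Hspg2 difference was the largest of the 9 in EphrinB2 cells, -1.95 (SE 0.68, adjusted p = 0.115), and shrank to -0.24 without both libraries that stood apart. In vector cells it was -0.71 (SE 0.68, adjusted p = 0.706). Leaving out EphrinB2 osteogenic replicate 2 instead, which keeps replicate 1, gave -2.87 (adjusted p = 0.0184), and 8 of the 9 genes, all but Lamb2, then fell, with 43.8% of tested genes called.

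**Figure D3:**
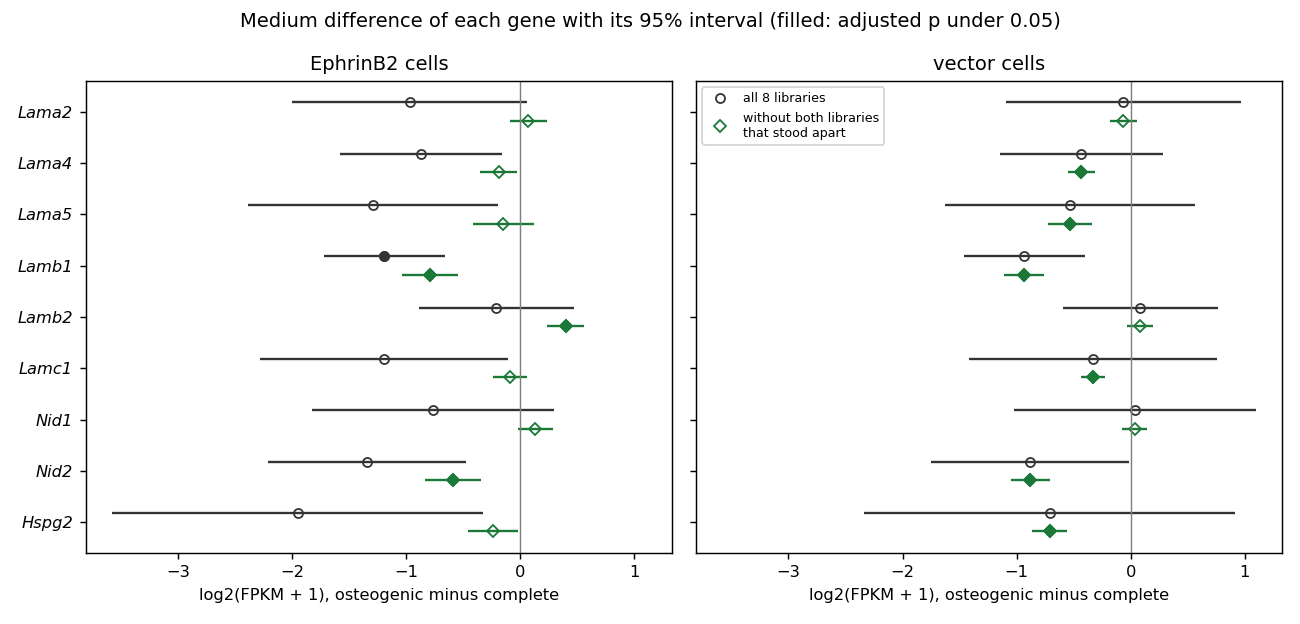
Difference between osteogenic and complete medium of each gene in log2(FPKM + 1), osteogenic minus complete (horizontal axis), with its 95% interval, for EphrinB2 cells on the left and vector cells on the right. Black circles come from the fit of all 8 libraries and green diamonds from the fit without both libraries that stood apart, filled where the adjusted p was under 0.05; Lamb1 and Nid2 stay below 0 in each, while Lamb2 in EphrinB2 cells is at -0.21 with all 8 libraries and at 0.40 without both.

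Markers of the cells in these cultures moved with the same comparison. The 10 fibroblast markers summed to 2355 to 2439 FPKM in EphrinB2 osteogenic and 4753 to 5585 in EphrinB2 complete libraries, and to 2368 to 2414 in vector osteogenic and 4545 to 4709 in vector complete libraries. In both kinds of cell 3 of the 10 fell, the collagens Col1a1, Col1a2 and Col3a1, and Dcn rose. The 12 macrophage markers summed to 4121 to 8306 FPKM in EphrinB2 osteogenic and 858 to 1787 in EphrinB2 complete libraries, and to 4638 to 4858 in vector osteogenic and 1861 to 2120 in vector complete libraries, with Lyz2 the largest part. Of these 12, 11 rose in EphrinB2 cells and 6 in vector cells (12 with the vector libraries alone), and 0 fell. Without both libraries that stood apart 10 rose in EphrinB2 cells, and with the EphrinB2 libraries alone 1 did. Endothelial cells, another source of Lama4, Lama5 and Hspg2, were scarce by their markers: 3 of 10 reached 1 FPKM in 2 libraries, Cldn5, Erg, Emcn, Kdr and Vwf stayed under 1 in every library, and the sum of the 10 was 9.47 to 14.2 FPKM. Tek was the largest part of that sum in every library. It stood at 7.51 and 10.98 FPKM in EphrinB2 osteogenic against 5.67 and 6.65 in EphrinB2 complete libraries. In vector cells Tek stood at 10.96 and 11.03 FPKM in osteogenic against 5.74 and 6.06 in complete libraries. Cdh5, the cadherin of endothelial junctions, stood the other way, at 0.371 and 0.383 FPKM in EphrinB2 osteogenic against 2.93 and 1.59 in EphrinB2 complete libraries, and at 0.602 and 0.578 in vector osteogenic against 2.98 and 2.03 in vector complete libraries. Cdh5 fell in EphrinB2 cells (-1.21, adjusted p = 0.0226) and in vector cells (-1.13, adjusted p = 0.0362), and Tek passed in neither (0.50, adjusted p = 0.137 and 0.80, adjusted p = 0.0554) with all 8 libraries but rose in both without both libraries that stood apart (adjusted p = 0.00327 in EphrinB2 and 0.000897 in vector cells). The other markers of the list, named after their values were seen, reached at most 1.18 FPKM. For Pecam1, Kdr, Tie1, Erg, Cldn5 and Egfl7 the osteogenic libraries lay below the complete ones in each kind of cell. Emcn overlapped between the media in both kinds of cell. Vwf overlapped in EphrinB2 cells and was higher in osteogenic vector libraries (0.199 and 0.148 against 0.136 and 0.0903 FPKM). Of 9 smooth muscle and pericyte markers 5 reached that level, led by Notch3 and Smtn, with a sum of 33.0 to 73.5 FPKM in EphrinB2 osteogenic and 78.7 to 122 in EphrinB2 complete libraries, and of 63.0 to 67.4 in vector osteogenic and 83.1 to 88.6 in vector complete libraries. The part of these cells in the laminin, nidogen and perlecan differences was not tested.

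Shares of transcripts within the beta chains and within the nidogens did not overlap between the media. They are made from the levels above, in which Lamb1, Nid2 and Lama5 were lower in every osteogenic library. They are therefore not separate evidence of a medium difference. Lamb2 made up 81.5% and 81.3% of the summed FPKM of both beta chains in EphrinB2 osteogenic libraries, against 65.4% and 71.6% in EphrinB2 complete libraries. In vector cells its share was 80.5% and 82.5% in osteogenic, against 68.1% and 68.4% in complete medium. All 4 osteogenic libraries thus lay between 80.5% and 82.5%, including the 1 that stood apart in its levels, and all 4 complete libraries between 65.4% and 71.6%. Shares are descriptions, and no test was made of them.

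Nid1 made up 77.4% and 80.9% of the summed nidogens in EphrinB2 osteogenic libraries, against 71.9% and 71.3% in EphrinB2 complete libraries. Its vector shares were 82.5% and 84.1% in osteogenic, against 71.9% and 72.9% in complete medium. Here too the media did not overlap. Lama5 was 5.05% and 7.63% of the summed alpha chains in EphrinB2 osteogenic, against 8.14% and 11.4% in EphrinB2 complete libraries, and 6.97% and 7.04% in vector osteogenic, against 9.29% and 8.32% in vector complete libraries, again without overlap. Lama4 and Lama2 shares did overlap between media: Lama4 was 48.8% to 61.9% in osteogenic and 50.4% to 54.2% in complete libraries, and Lama2 33.0% to 44.1% and 36.6% to 38.5%.

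The summed beta chains stood at 2.98 and 1.80 times Lamc1 in EphrinB2 osteogenic, against 1.59 and 1.21 times in EphrinB2 complete libraries. In vector cells the ratio was 1.64 and 1.61 in osteogenic, against 1.48 and 1.42 in complete medium. In FPKM the beta chains thus exceeded the single gamma chain in every library, and osteogenic libraries had the higher ratio. The 3 alpha chains together stood at 0.51 to 0.64 times Lamc1 in osteogenic and 0.48 to 0.52 times in complete libraries, which overlapped. Hspg2, at 0.926 to 1.611 times Lamc1 in osteogenic and 1.561 to 2.392 times in complete libraries, overlapped too. So did Nid1, at 1.637 to 1.954 and 1.049 to 1.65 times Lamc1. All 9 genes summed to 351 and 783 FPKM in EphrinB2 osteogenic, 818 and 1499 in EphrinB2 complete, 826 and 808 in vector osteogenic, and 1039 and 1028 in vector complete libraries.

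**Figure D4:**
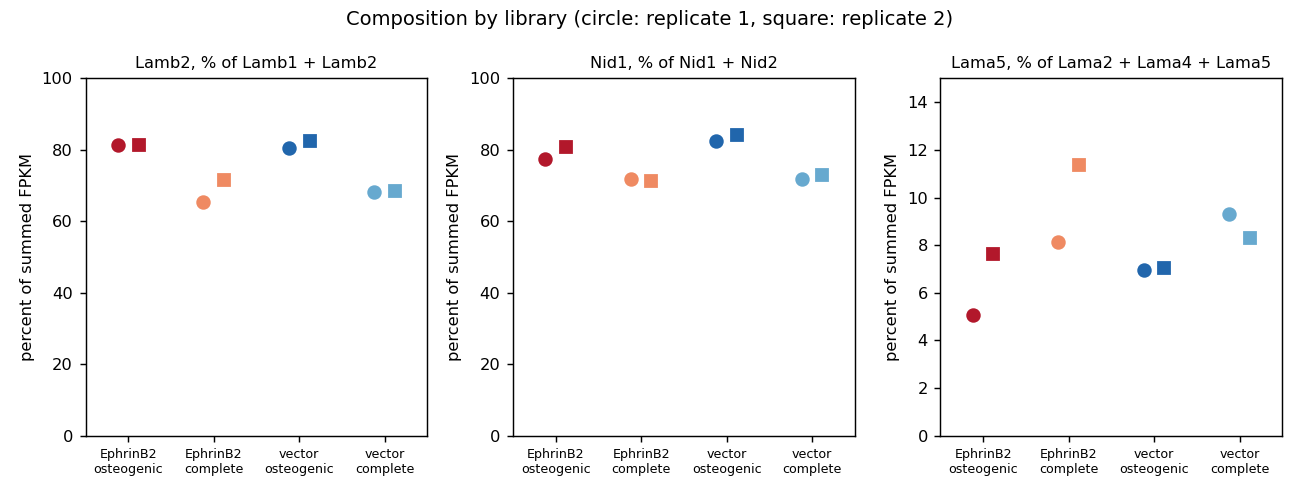
Share of Lamb2 among both beta chains, of Nid1 among both nidogens and of Lama5 among the 3 alpha chains, in percent of summed FPKM (vertical axis, linear from 0), by library and group. Circles are replicate 1 and squares replicate 2; in each panel osteogenic and complete libraries do not overlap, for example 80.5% to 82.5% against 65.4% to 71.6% for Lamb2.

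EphrinB2 against vector cells of the same medium asks what overexpression of the ligand went with. In osteogenic medium all 9 genes were lower in EphrinB2 cells by the mean, by -0.19 for Lamb1 to -1.12 for Hspg2, and 0 of the 9 passed (limma adjusted p = 0.567 to 0.699). There 0 of all tested genes were called (0%), and 441 had an unadjusted p under 0.05. Without both libraries that stood apart the 9 differences lay between -0.20 and 0.14. Without EphrinB2 osteogenic replicate 2, Lama2 (-1.39, adjusted p = 0.0413), Nid1 (-1.58, adjusted p = 0.0204) and Nid2 (-1.02, adjusted p = 0.0292) fell, with 21.1% of tested genes called. The value for each gene thus followed which EphrinB2 library was kept.

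In complete medium EphrinB2 cells differed from vector cells by -0.03 for Nid1 to 0.22 for Lama5, and 0 of the 9 passed (adjusted p = 1), where 0.0077% of tested genes were called, 1 gene, and 167 had an unadjusted p under 0.05. The 95% intervals were wide for Hspg2, -1.51 to 1.74, and narrowest for Lamb1, -0.46 to 0.60. Without both libraries that stood apart all 9 lay below 0, between -0.07 for Lamb1 and -0.67 for Hspg2 (adjusted p = 0.135 to 0.661), and 0 of 9 passed, with 0.0154% of tested genes called. The interaction, the medium difference in EphrinB2 cells minus that in vector cells, was -0.26 for Lamb1 to -1.24 for Hspg2, with 0 of 9 called (adjusted p = 0.746 to 0.772), 0% of tested genes called and 214 at an unadjusted p under 0.05. Without both libraries that stood apart it lay between 0.09 for Nid1 and 0.47 for Hspg2, above 0 for all 9. These comparisons share libraries with each other and with the medium comparisons.

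The genes around these 9 were described in 7 lists, for which 11.8% and 7.52% of all tested genes, called for the medium in EphrinB2 and in vector cells, are the background. Among other laminin chains, Lama3, Lamb3 and Lamc3 stayed under 1 FPKM in every library and were not tested. Lama1, an early embryonic chain, fell in EphrinB2 cells (-1.25, adjusted p = 0.0281), at 0.0754 and 0.230 FPKM in osteogenic against 1.097 and 2.57 in complete libraries. In vector cells Lama1 was lower too, at 0.251 and 0.203 FPKM in osteogenic against 1.34 and 1.59 in complete libraries. Its values are at the low end of what these libraries measured.

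Of 6 tested basement membrane collagens (of 8), 1 fell in each kind of cell and 0 rose. Col15a1, which lies between basement membrane and interstitium, stood at 0.360 and 0.948 FPKM in EphrinB2 osteogenic, against 35.2 and 41.6 in EphrinB2 complete libraries, and at 0.692 and 0.464 in vector osteogenic, against 26.4 and 28.6 in vector complete libraries. It fell by 4.59 (adjusted p = 0.000176) in EphrinB2 and by 4.18 (adjusted p = 0.000212) in vector cells. The type IV chain Col4a1, named for its role after its values were seen, differed by -0.998 (adjusted p = 0.0898) in EphrinB2 and -0.38 (adjusted p = 0.637) in vector cells, and with the vector libraries alone 5 of the 6 collagens fell, Col4a1 among them (adjusted p = 0.00685). The collagen list's median was -0.99 in EphrinB2 and -0.44 in vector cells, beside 0.03 and -0.02 over all tested genes, and -0.37 in EphrinB2 cells without both libraries that stood apart.

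Of 12 tested further basement membrane proteins (of 18), 3 rose and 4 fell in EphrinB2 cells and 2 rose and 4 fell in vector cells. Fbln2, a fibulin that binds nidogen and perlecan, fell in EphrinB2 cells (-1.99, adjusted p = 0.00316) and in vector cells (-1.57, adjusted p = 0.00928), with 176 and 242 FPKM in EphrinB2 osteogenic against 741 and 913 in EphrinB2 complete libraries. The calcium-binding matricellular proteins Smoc1 and Smoc2 went opposite ways. Smoc1 fell in EphrinB2 cells (-1.33, adjusted p = 0.00475) and in vector cells (-1.38, adjusted p = 0.00498), and Smoc2 rose (1.18, adjusted p = 0.00475 in EphrinB2 cells and 1.04, adjusted p = 0.00908 in vector cells). Sparc, which binds collagens, fell by 1.73 in vector cells (adjusted p = 0.02), and Pxdn, the peroxidase that crosslinks type IV collagen, by 1.94 in EphrinB2 cells (adjusted p = 0.00903). Neither was lower in that kind of cell only. Sparc stood at 1009 and 899 FPKM in EphrinB2 osteogenic against 3059 and 1625 in EphrinB2 complete libraries. Pxdn stood at 7.85 and 7.99 FPKM in vector osteogenic against 21.98 and 22.92 in vector complete libraries.

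Of 14 tested receptors for laminins and other matrix proteins (of 15), 5 fell in EphrinB2 and 2 in vector cells, and 0 rose in either. The integrin alpha subunit Itgav fell in EphrinB2 cells (-1.40, adjusted p = 0.0107) and in vector cells (-1.19, adjusted p = 0.0231), and so did Itga2 (-1.01, adjusted p = 0.0172 in EphrinB2 cells and -1.11, adjusted p = 0.0153 in vector cells). Cd44, a hyaluronan receptor, fell by 1.43 (adjusted p = 0.0106) and the integrin Itgb3 by 1.09 (adjusted p = 0.0168) in EphrinB2 cells. Both were lower in vector cells too, without passing. Cd44 stood at 10.6 and 8.63 FPKM in vector osteogenic against 17.6 and 21.0 in vector complete libraries. Itgb3 stood at 1.98 and 1.66 against 3.22 and 3.44 FPKM there. Itgb1, the beta subunit of the main laminin-binding integrins, stood at 404 to 657 FPKM and differed by -0.40 (adjusted p = 0.24) in EphrinB2 and by -0.14 (adjusted p = 0.853) in vector cells. Dag1, dystroglycan, the receptor that binds laminin alpha chains through sugars, differed by -1.33 (adjusted p = 0.067) in EphrinB2 and by -0.68 (adjusted p = 0.411) in vector cells, and fell with the vector libraries alone (adjusted p = 0.000769). Itgb1 and Dag1 were named for their role after their values were seen. Of 19 genes of the dystroglycan complex and its glycosylation, 2 fell in EphrinB2 cells, the sarcoglycan Sgcd (-1.13, adjusted p = 0.0198) among them, and 0 passed in vector cells. Sgcd was lower in vector cells too, at 0.400 and 0.432 FPKM in osteogenic against 1.415 and 1.725 in complete libraries.

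Perlecan carries heparan sulfate, and of 21 genes of its synthesis and remodelling 3 rose and 3 fell in EphrinB2 cells, and 2 rose and 3 fell in vector cells. Ext1, a subunit of the chain polymerase, stood at 8.48 and 11.7 FPKM in EphrinB2 osteogenic, against 36.2 and 46.6 in EphrinB2 complete libraries, and at 10.6 and 11.3 in vector osteogenic, against 35.0 and 35.3 in vector complete libraries. It fell by 1.94 (adjusted p = 0.00242) in EphrinB2 and by 1.59 (adjusted p = 0.00596) in vector cells. The sulfotransferase Hs6st2 fell in EphrinB2 cells (-2.11, adjusted p = 0.00126) and vector cells (-1.74, adjusted p = 0.00301), and so did the sulfatase Sulf1 (-1.88, adjusted p = 0.00481 and -1.45, adjusted p = 0.0152). Hs3st3a1, another sulfotransferase, rose in EphrinB2 cells (1.17, adjusted p = 0.00561) and in vector cells (1.23, adjusted p = 0.00551). Genes that add and genes that remove sulfate groups were thus both among those that fell.

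Of 14 proteases and inhibitors that act on basement membranes, 1 rose and 2 fell in each kind of cell. Timp3, a matrix-bound inhibitor of metalloproteinases, stood at 10.8 and 47.5 FPKM in EphrinB2 osteogenic, against 410 and 523 in EphrinB2 complete libraries, and at 46.4 and 47.3 in vector osteogenic, against 443 and 424 in vector complete libraries. Timp3 fell in EphrinB2 cells (-4.28, adjusted p = 0.00641) and in vector cells (-3.18, adjusted p = 0.0226), and so did the membrane protease Mmp14 (-1.17, adjusted p = 0.00933 and -0.95, adjusted p = 0.0231). The lysosomal protease Ctss rose in EphrinB2 cells (1.86, adjusted p = 0.0172) and Mmp9, a gelatinase, in vector cells (1.79, adjusted p = 0.0118), both also made by macrophages, whose markers moved as given above. Ctss was higher in vector cells too, at 159 and 189 FPKM in osteogenic against 63.7 and 65.6 in complete libraries, while Mmp9 overlapped between the media in EphrinB2 cells. Without both libraries that stood apart, where 29.7% of tested genes were called in EphrinB2 cells, 4 collagens, 6 further basement membrane proteins, 9 receptors, 3 dystroglycan genes, 5 heparan sulfate genes and 3 proteases or inhibitors fell there. In the same fit 0, 3, 0, 1, 5 and 3 rose, in that order of lists. The medians of the lists after the collagens were -0.82, -0.72, -0.19, -0.33 and -0.08 in EphrinB2 cells with all 8 libraries, and -0.33, -0.55, -0.17, -0.13 and -0.0091 in vector cells. Without both libraries that stood apart those in EphrinB2 cells were -0.35, -0.55, -0.084, -0.18 and -0.036. With the vector libraries alone, where 40.6% were called, 5, 6, 9, 8, 10 and 4 fell and 0, 3, 1, 2, 6 and 5 rose. In EphrinB2 against vector comparisons 0 genes of these 7 lists passed in either medium. With the EphrinB2 libraries alone, Col15a1 (adjusted p = 0.00754) and Hs6st2 (adjusted p = 0.044) were the genes of these lists that passed for the medium.

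**Figure D5:**
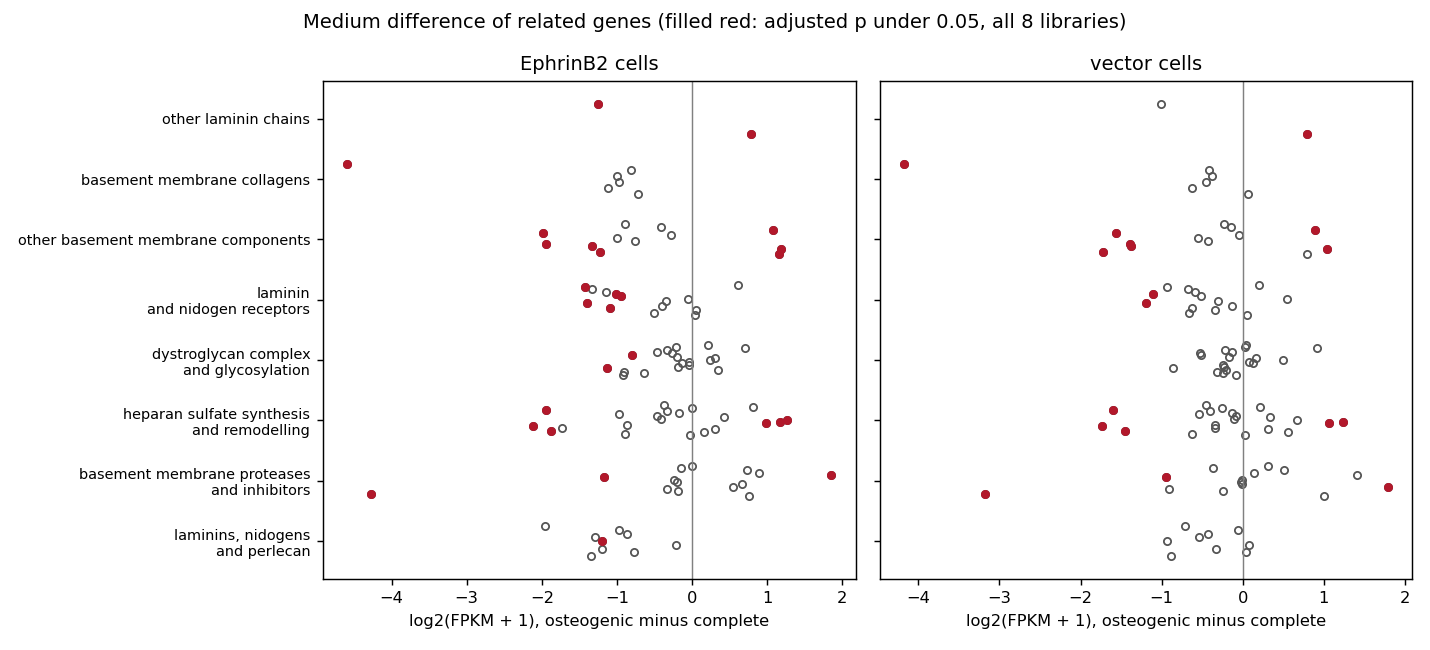
Difference between osteogenic and complete medium in log2(FPKM + 1), osteogenic minus complete (horizontal axis), of every tested gene of 7 related lists and of the 9 genes (bottom row), in EphrinB2 cells on the left and vector cells on the right, from all 8 libraries. Filled red points passed an adjusted p of 0.05; Col15a1 and Timp3 lie farthest to the left, at -4.59 and -4.28 in EphrinB2 cells, and the 9 genes lie between -1.95 and -0.21 there and between -0.93 and 0.08 in vector cells.

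The genes with the most similar profile to each member were sought among 10810 named protein-coding genes, by the root mean square difference of centred log2 profiles over the 8 libraries. Lamb1 was nearest to Irf2bpl (0.069) and Pik3r3 (0.085), Nid2 to Plekhg2 (0.0673) and Crim1 (0.0761), Lamb2 to Tom1l2 (0.03) and Dnajb14 (0.0405), and Lamc1 to Sh3pxd2b (0.0493) and Nav1 (0.0543). Lama2 was nearest to Cmip (0.0602) and Ranbp2 (0.0615), Lama4 to Pogk (0.0371) and Pcdh19 (0.0504), Lama5 to Vps13d (0.0795) and Myo7a (0.0818), Nid1 to Pik3c2a (0.0782) and Ern1 (0.0832), and Hspg2 to Piezo1 (0.1371) and Macf1 (0.1669). Every member was closer to 2 other genes than to any of the other 8 members. With 10810 genes to choose from against 8 members, that outcome was likely for any gene. It does not show whether the 9 vary together. Within the 9, Lamc1 and Lama5 were nearest to each other (0.1257), Lama2 was nearest to Lamc1 (0.131), Nid1 to Lama2 (0.171) and Lamb1 to Nid2 (0.1817), and Hspg2 stood farthest from the rest, with Lama5 nearest (0.364). Profiles over 8 libraries share the spread of the EphrinB2 pairs, which moved with exon length.

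By GENCODE M21 on GRCm38 the 9 genes lie on 8 chromosomes. Lama2 (ENSMUSG00000019899) spans chr10:26980036-27619758 on the minus strand and Lama4 (ENSMUSG00000019846) chr10:38965515-39110188 on the plus strand. Lama5 (ENSMUSG00000015647) spans chr2:180176373-180225859 and Lamc1 (ENSMUSG00000026478) chr1:153218922-153332786, both on the minus strand. The others lie on plus strands: Lamb1 (ENSMUSG00000002900) at chr12:31265234-31329644, Lamb2 (ENSMUSG00000052911) at chr9:108479736-108490530, Nid1 (ENSMUSG00000005397) at chr13:13437551-13512269, Nid2 (ENSMUSG00000021806) at chr14:19751265-19811787 and Hspg2 (ENSMUSG00000028763) at chr4:137468769-137570630. Lama2 and Nid1 also share exon bases with the predicted genes Gm48084 and Gm48682 on the opposite strand, which were listed at 0 FPKM (Gm48084) and at no more than 0.214 FPKM (Gm48682).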

How the data were processed

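RNA was taken from 8 libraries of mouse cardiac fibroblasts, 4 groups of 2, and the authors deposited 1 table with FPKM for 54532 genes. The submitters' processing notes name build mm10 and list HISAT2 2.0.5, DESeq2 1.16.1, featureCounts 1.5.0-p3 and CASAVA. For annotation release, strand setting and filters, nothing is given in the sources used here. 0 columns held values of other samples.

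GENCODE M21 on GRCm38 (mm10) supplied symbols, coordinates and lengths of merged exons (54495 identifiers matched, 37 did not). FPKM times exon length gave whole reads for 98.1% to 98.3% of genes under 50 reads (tolerance 0.02 reads), from which 16493963 to 20550770 counted reads per library were estimated. Intervals of reads would cover counting error only.

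Genes with at least 1 FPKM in at least 2 libraries (12994) were tested on log2(FPKM + 1), which understates changes of low genes. All 8 libraries entered 1 limma 3.58.1 model (R 4.3.3) with a mean per group, mean-variance trend, 4 residual and 2.72 prior degrees of freedom, and two-sided moderated tests. P-values were adjusted by Benjamini-Hochberg over all tested genes, with a threshold of 0.05. Tables were joined with Python 3.11.15, pandas 2.3.3 and numpy 2.4.6. The steps were tested on simulated data in which each gene varied independently. Those data held no trend on exon length, so that test does not cover the length trend of the EphrinB2 pairs.

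Alternatives were a pseudocount of 0.1, no filter on low values, median-ratio scaling, the 4 libraries of a comparison alone, array weights, removal of each library's trend on exon length, each library left out, and both libraries that stood apart left out. The genes, lists, markers and alternatives were chosen with earlier results of these data known. Named genes are the 9 members, Efnb2, up to 4 called genes with the smallest p per list and comparison, the 2 highest genes per marker list and the 2 nearest profiles per member. Other names are marked where they appear. Some genes that this rule names are not reported here.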

Additional observations from a re-analysis of the deposited data

How the results depend on the processing

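No paired analysis was possible because the labels give no replicate number shared between groups. Median-ratio scaling, with factors of 0.992 to 1.03, left every named result on its side of the threshold.

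Counts of called genes moved as follows, with the cause not tested. For the medium in vector cells (977 with all 8 libraries), 5273 were called with the 4 vector libraries alone, 5521 with array weights, 1534 with the length trend removed, 5274 without both libraries that stood apart, and 169 to 1749 with 1 library left out. Of the 9 genes, 6, 5, 1, 6 and 0 to 2 were called there, against 0. For the medium in EphrinB2 cells (1533), it was 153 alone, 335 with array weights, 3858 without both libraries that stood apart and 635 to 5686 with 1 left out. Of the 9 genes, 0 were called alone, 0 with array weights and 2 with the length trend removed, against 1. Without both libraries that stood apart the 9 differences did not share a direction and lay between -0.79 and 0.40. For EphrinB2 against vector in complete medium (1 gene), 0 were called with a pseudocount of 0.1, alone, with array weights and with the length trend removed, 13 without the filter, 2 without both libraries that stood apart and 0 to 1 with 1 left out. In osteogenic medium (0), 14 were called without the filter, 1 without both and 0 to 2742 with 1 left out (of the 9 genes, 0 to 3), and for the interaction (0), 22 without the filter.

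Directions turned mainly without both libraries that stood apart. The medium difference in EphrinB2 cells was then 0.067 for Lama2, 0.40 for Lamb2 and 0.13 for Nid1. EphrinB2 against vector in complete medium was -0.26 for Lama2, -0.32 for Lama4, -0.36 for Lama5, -0.071 for Lamb1, -0.26 for Lamb2, -0.32 for Lamc1, -0.15 for Nid2 and -0.67 for Hspg2, and in osteogenic medium 0.025 for Lama5, 0.072 for Lamb1, 0.056 for Lamb2 and 0.14 for Nid2. The interaction was 0.13 for Lama2, 0.24 for Lama4, 0.39 for Lama5, 0.14 for Lamb1, 0.32 for Lamb2, 0.24 for Lamc1, 0.094 for Nid1, 0.29 for Nid2, 0.47 for Hspg2 and 0.83 for Efnb2. With the length trend removed Lamb1 was 0.058 in osteogenic medium and 0.035 in the interaction, and Efnb2 0.12 in the interaction (0.35 with a pseudocount of 0.1).

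With 1 library left out, EphrinB2 against vector in complete medium ran over -0.26 to 0.55 for Lama2, -0.32 to 0.42 for Lama4, -0.36 to 0.81 for Lama5, -0.071 to 0.20 for Lamb1, -0.26 to 0.43 for Lamb2, -0.32 to 0.63 for Lamc1, -0.18 to 0.13 for Nid1, -0.15 to 0.20 for Nid2 and -0.67 to 0.90 for Hspg2. In osteogenic medium it ran over -1.10 to 0.025 for Lama5, -0.46 to 0.072 for Lamb1, -0.47 to 0.056 for Lamb2 and -1.02 to 0.14 for Nid2. The interaction ran over -0.53 to 0.0059 for Lamb1, -0.64 to 0.051 for Lamb2, -1.04 to 0.11 for Nid2 and -0.89 to 0.79 for Efnb2, and the medium difference of Lamb2 in EphrinB2 cells over -0.56 to 0.13. The cause of these turns was not tested.

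Each group held 2 libraries, and the EphrinB2 pairs were the wider ones. The fewest reads behind a value of the 9 genes were 347.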

Other observations

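Some markers listed for other lineages also differed with the medium. Fabp4, the fatty acid binding protein of adipocytes and also of macrophages and capillaries, stood at 60.0 and 28.7 FPKM in EphrinB2 osteogenic, against 1.48 and 0.729 in EphrinB2 complete libraries, and at 24.6 and 24.0 in vector osteogenic, against 1.34 and 0.958 in vector complete libraries. It rose by 4.36 (limma adjusted p = 0.00098) in EphrinB2 and by 3.56 (adjusted p = 0.0023) in vector cells, while Adipoq, Plin1, Cidec and Lep stayed under 1 FPKM in every library and Lpl did not pass in either. Of 8 cardiomyocyte markers only Tnnt2 reached 1 FPKM in 2 libraries, and it rose by 2.80 (adjusted p = 0.00163) and 2.12 (adjusted p = 0.00525). Msln, a mesothelial marker, rose by 2.25 (adjusted p = 0.00154) and 2.19 (adjusted p = 0.00199), and Upk3b did not pass. Of 6 Schwann cell and glial markers 1, S100b, was tested and 0 passed, and 0 of 6 lymphocyte markers reached the level for testing, with Cd3g listed at 0 in every library. Smooth muscle and pericyte markers did not move as one. Mcam fell by 1.08 in EphrinB2 cells (adjusted p = 0.0349). Myh11 was higher in osteogenic EphrinB2 libraries, at 1.11 and 2.48 FPKM against 0.566 and 0.846 in complete medium. In vector cells Myh11 stood at 1.67 and 1.56 FPKM in osteogenic against 0.428 and 0.474 in complete libraries. Both genes were named after their values were seen. The part of these cells in the basement membrane results was not tested.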
